A study of Mus musculus with 16 samples.

Results

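Glucocorticoid target genes were followed in Paneth cells sorted from the small intestine of mice. Paneth cells sit at the base of the crypts and secrete antimicrobial proteins such as the alpha-defensins. The set holds 9 genes named as direct targets of the glucocorticoid receptor, namely Sgk1, Fkbp5, Tsc22d3, Zbtb16, Klf9, Ddit4, Errfi1, Map3k6 and Cdkn1a. They were chosen by name among 55414 genes in the deposited counts, with earlier results of these data known. All 9 were among the 11809 genes with enough reads to be tested. The mice were of the C57BL/6J strain. They received PBS or DEX first and PBS or tumour necrosis factor (TNF) 1 h later, and were sampled 3 h after the second injection. This gave 4 groups of 4 libraries, named by first and second injection: the control PBS+PBS, the DEX control DEX+PBS, and the TNF groups PBS+TNF and DEX+TNF. DEX commonly stands for the synthetic glucocorticoid dexamethasone, but no source used here writes the name in full. Neither the doses nor the age of the mice were given in the sources used here.

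The glucocorticoid receptor (Nr3c1) rests in the cytoplasm with chaperones until it binds its ligand, after which it enters the nucleus and binds DNA. It binds preferentially to a palindrome of 2 inverted half-sites separated by 3 bases, and a bound receptor can activate nearby genes. Several of its best known targets restrain signalling: Fkbp5 encodes a chaperone that lowers the receptor's own affinity for hormone, and Tsc22d3 encodes GILZ, an inhibitor of NF-kB and AP-1. The kinase SGK1, encoded by Sgk1, promotes sodium uptake in epithelia. TNF in contrast activates NF-kB, whose targets include its own inhibitors Nfkbia and Tnfaip3.

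The receptor's palindrome was searched for around the start of each gene in the GRCm39 genome, because it is the DNA element that the receptor binds preferentially. The searched pattern was a half-site, any 3 bases and the reverse complement of the half-site, with GNACA as the half-site of the loose form and GAACA as that of the stricter form. N stands for any base and was free on each side, so a loose match need not be an exact palindrome. As a pattern each form reads the same on both strands, and every stricter match is also a loose one. Within 5000 bp on either side of the start, the loose form was present in 4 of the 9 genes and in 15.8% of 11214 tested coding genes. The stricter form was present in Sgk1 and in 1.14% of the same 11214 genes. The matches are shown on the strand of the gene, with the matched stretch in capitals and flanking bases in lower case. Among the loose matches shown, only that of Sgk1 is an exact palindrome in its half-sites. The site 958 bp upstream of the canonical Sgk1 start lies at chr10:21869593-21869621 (plus strand), within the span of longer Sgk1 transcripts. The Fkbp5 site lies 1219 bp downstream of the start at chr17:28703919-28703947 (minus strand), the Map3k6 site 142 bp upstream at chr4:132967940-132967968 (plus strand), and the Cdkn1a site 942 bp downstream at chr17:29313666-29313694 (plus strand).
Sgk1: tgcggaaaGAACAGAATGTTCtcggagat
Fkbp5: ggggctcgGGACAGGGTGTACagcgcttg
Map3k6: gaatagggGCACAGGCTGTTCcggaagtg
Cdkn1a: tttggcggGCACAGTATGTTCccagggaa

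Over the whole gene with 5000 bp added at each end, the stricter form was found in 2 of the 9 genes and in 7.54% of the tested coding genes. Fkbp5 held 2 such sites far inside the gene. One lies 43752 bp downstream of the start at chr17:28661386-28661414 and the other 65850 bp downstream at chr17:28639288-28639316, both on the minus strand as shown.
Fkbp5, nearer site: ttgtttgaGAACAGCTTGTTCtaggcttt
Fkbp5, farther site: cacattcaGAACAGGGTGTTCtgtgctct
These matches describe the letters in the searched windows. Binding of the receptor was not measured, and the genes without a match are not shown to lack a site.

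Library totals ranged from 7286307 to 15832111 counts, and the scaling factors (TMM) from 0.418 to 1.502. Values are CPM, counts relative to the scaled total of the library, and so are levels relative to all its other RNA. In such bulk samples fewer cells of a type and less RNA per cell cannot be told apart. The 6 Paneth markers together took 40.8% to 60.9% of all counts in every library. Cd3e, S100a8, Col1a2, Col3a1 and Hbb-bt, markers of T cells, neutrophils, stroma and red cells, were at 0 in all 16 libraries, but the myeloid marker Lyz2 was at 20.1 to 114 CPM and the leukocyte marker Ptprc at 0 to 21.0 CPM. The other stromal, endothelial and red cell markers had few reads, from 1 (Col1a1) to 37 (Pecam1) over all libraries together. The 5 goblet cell markers together were at 2263 to 7428 CPM, more than those of any other non-Paneth type examined.

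The libraries labelled DEX+TNF 3 and DEX+TNF 4 went against their label. For Nfkbia, libraries 1 and 2 of DEX+TNF held 330 and 382 CPM, and libraries 3 and 4 held 28.3 and 41.0 CPM. It was between 277 and 337 CPM in PBS+TNF and between 15.6 and 27.3 CPM in the groups without TNF. Cxcl10, an NF-kB and interferon target, was at 26.1 and 33.0 CPM in DEX+TNF libraries 1 and 2, at 0 in library 3 and at 0.150 CPM in library 4. Tnfaip3 was at 115, 110, 2.25 and 7.38 CPM in DEX+TNF libraries 1 to 4, against 58.9 to 86.0 CPM in PBS+TNF. Over 12 tested NF-kB genes, the mean log2 CPM was 1.159 in library 3 and 2.087 in library 4. It was at most 1.311 in libraries without TNF and at least 4.967 in PBS+TNF. Library 3 thus had NF-kB target levels at or near those of mice without TNF. Library 4 lay on average above those levels but far below PBS+TNF. Calls that use libraries 3 and 4 are therefore also given without both. Library 4 also had the highest sums of 7 enterocyte markers (386 CPM), 4 tuft markers (423 CPM) and 4 stem cell markers (1219 CPM). Its sums of Paneth and goblet markers were the lowest in CPM (279540 and 2263 CPM), but their shares of all its counts (41.8% and 0.339%) were not. The lowest shares were 40.8% for Paneth markers (DEX+PBS library 4) and 0.127% for goblet markers (PBS+TNF library 1). In the remaining 15 libraries the enterocyte, tuft and stem cell sums reached at most 354, 119 and 826 CPM. As shares of all counts these markers took 0.0577%, 0.0634% and 0.182% in library 4. The shares were at most 0.0178%, 0.0128% and 0.119% in the remaining libraries. Of the 9 members, 6 had their highest level of all in library 4: Sgk1, Fkbp5, Tsc22d3, Zbtb16, Ddit4 and Cdkn1a. The part of the other cell types in these levels was not tested.

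The first question was which of the target genes DEX changed, on average over both second injections. Sgk1, Fkbp5, Tsc22d3, Zbtb16 and Ddit4 rose, by 1.95-fold (Ddit4) to 10.7-fold (Sgk1), whereas Klf9, Errfi1, Map3k6 and Cdkn1a did not pass the test. A gene is called when its adjusted p (edgeR quasi-likelihood test, Benjamini-Hochberg adjustment over all tested genes) is under 0.05. By this rule 5 of 9 members were called, against 0.186% of all tested genes (22 genes). Because the members were chosen with earlier results of these data known, these shares are a description and not a test of the set. The median log2 fold change was 0.97 over the 9 genes and 0.01 over all tested genes. In 3 of the 5, Sgk1, Fkbp5 and Zbtb16, all 8 DEX libraries lay above all 8 other libraries, a pattern held by 0.0593% of tested genes (7 genes).

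**Figure D1:**
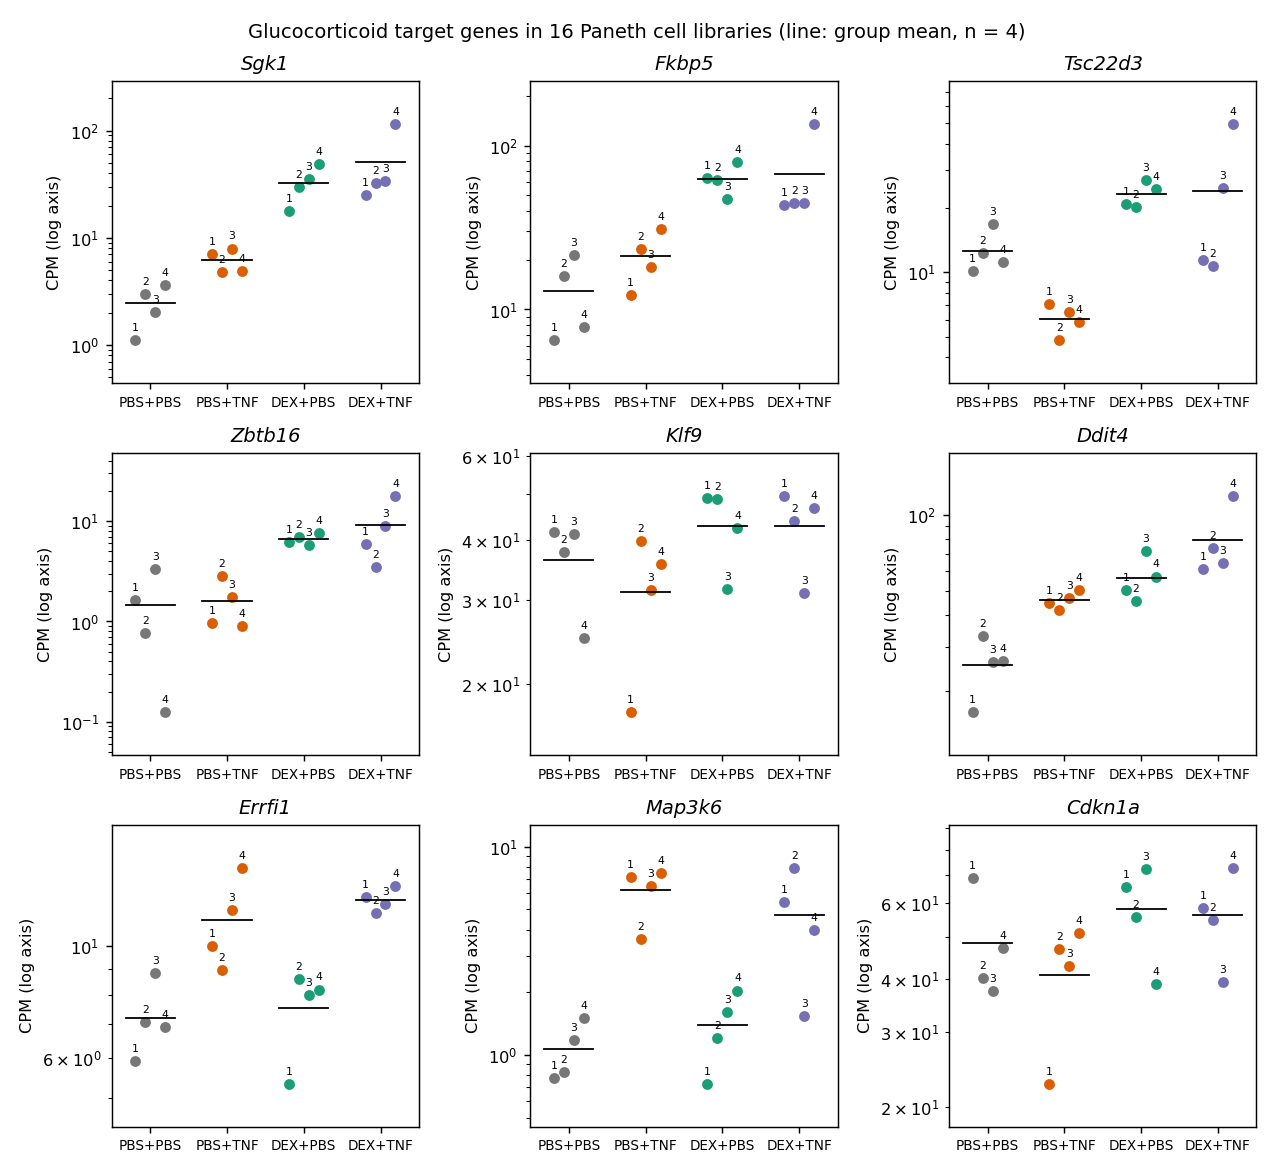
CPM of each of the 9 glucocorticoid target genes in every library (log axis, numbers are replicate numbers, black lines are group means of 4 libraries). Sgk1, Fkbp5 and Zbtb16 are higher in every DEX library than in any other library, Map3k6 is high in the PBS+TNF libraries, and DEX+TNF library 4 stands at the top of Sgk1 at 115 CPM and of Fkbp5 at 135 CPM.

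Sgk1 (ENSMUSG00000019970, chr10:21758083-21875802) ranked first of all tested genes by the mean DEX effect. Its level was 1.11, 3.00, 2.03 and 3.64 CPM in the PBS+PBS libraries and 17.6, 29.7, 35.0 and 48.5 CPM in the DEX+PBS libraries. The groups did not overlap, and the lowest DEX+PBS library lay well above the highest PBS+PBS library. With TNF as second injection it was at 7.13, 4.82, 7.94 and 4.90 CPM after PBS and at 24.8, 32.4, 33.6 and 115 CPM after DEX. These groups did not overlap either, and DEX+TNF library 4 stood apart. The log2 fold change was 3.76 (SE 0.50, adjusted p = 0.009976) without TNF and 3.06 (SE 0.48, adjusted p = 0.02364) with TNF. The mean DEX effect was 3.41 (SE 0.35, adjusted p = 0.0002043). Without DEX+TNF libraries 3 and 4 the effect with TNF was 2.23 and no longer passed (adjusted p = 0.1736), while the mean effect of 3.00 did (adjusted p = 3.12e-05). When single libraries were left out the mean effect was called in 16 of 16 fits. The effect with TNF was lost (adjusted p up to 0.09307) without any 1 of the PBS+TNF libraries or DEX+TNF library 3 or 4.

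Fkbp5 (ENSMUSG00000024222, chr17:28618058-28737521) had the next smallest p among the 9 genes. The PBS+PBS libraries held 6.51, 16.1, 21.4 and 7.79 CPM and the DEX+PBS libraries 63.2, 61.3, 47.3 and 79.5 CPM. The PBS+TNF libraries held 12.3, 23.5, 18.1 and 31.0 CPM and the DEX+TNF libraries 43.2, 44.5, 44.6 and 135 CPM. DEX libraries 1 to 3 of the TNF arm were nearly equal and library 4 lay far above them. The mean DEX effect was a log2 fold change of 1.96 (SE 0.31, adjusted p = 0.01444), and the effects of 2.27 without TNF (adjusted p = 0.2824) and 1.65 with TNF (adjusted p = 0.1088) did not pass on their own. Without DEX+TNF libraries 3 and 4 the mean effect was 1.65 (adjusted p = 0.027) and the effect with TNF 1.04 (adjusted p = 0.4534). Of 16 single omissions, that of PBS+TNF library 3 ended the call of the mean effect (adjusted p = 0.05563).

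Tsc22d3 (ENSMUSG00000031431, chrX:139440091-139501408), which encodes GILZ, had a larger estimated DEX effect with TNF than without it, which did not pass the test and was gone when DEX+TNF libraries 3 and 4 were both left out. It was at 10.1, 12.3, 16.8 and 11.2 CPM in PBS+PBS and at 21.0, 20.3, 27.0 and 24.5 CPM in DEX+PBS. It was at 7.13, 4.82, 6.54 and 5.84 CPM in PBS+TNF and at 11.4, 10.7, 24.9 and 49.4 CPM in DEX+TNF. The DEX+TNF libraries lay above all PBS+TNF libraries, but libraries 1 and 2 were in the range of PBS+PBS and libraries 3 and 4 at or above the range of DEX+PBS. The log2 fold change was 0.88 (SE 0.37, adjusted p = 1) without TNF and 2.00 (SE 0.39, adjusted p = 0.03441) with TNF. Without DEX+TNF libraries 3 and 4 the effect with TNF was 0.87 (SE 0.25, adjusted p = 0.3125). The mean effect was 1.44 (SE 0.27, adjusted p = 0.03838) with them and 0.88 (adjusted p = 0.06068) without them. These calls lay near the threshold: the mean effect was called in 3 of 16 single omissions (DEX+TNF library 1, 2 or 4 left out), with adjusted p up to 0.1209 in the others. The effect with TNF was called in 7 of 16 and lost, with adjusted p up to 0.1191, without PBS+PBS library 2, any 1 of the PBS+TNF libraries, DEX+PBS library 1 or 2, or DEX+TNF library 3 or 4.

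Zbtb16 (ENSMUSG00000066687, chr9:48563141-48748664) encodes PLZF, a zinc finger transcription repressor. It was among the least abundant members, with 1.63, 0.766, 3.31 and 0.126 CPM in PBS+PBS, the last from 1 read. The DEX+PBS libraries held 6.19, 6.99, 5.84 and 7.65 CPM. The PBS+TNF libraries held 0.963, 2.83, 1.76 and 0.891 CPM, and the DEX+TNF libraries 5.97, 3.48, 8.98 and 17.8 CPM. All DEX libraries lay above all others, with the narrowest margin between DEX+TNF library 2 and PBS+PBS library 3. The mean DEX effect was a log2 fold change of 2.29 (SE 0.43, adjusted p = 0.03838). It was 2.12 (SE 0.60, adjusted p = 1) without TNF and 2.45 (SE 0.61, adjusted p = 0.09376) with TNF. With DEX+TNF libraries 3 and 4 left out the mean effect was 1.81 and did not pass (adjusted p = 0.1586). It was called in 3 of 16 single omissions (PBS+PBS library 3 or DEX+TNF library 1 or 2 left out), with adjusted p up to 0.1209 in the others.

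Ddit4 (ENSMUSG00000020108, chr10:59785491-59788492) encodes REDD1, a stress-induced inhibitor of the growth kinase mTORC1. It was at 16.5, 32.9, 26.1 and 26.3 CPM in PBS+PBS, at 50.4, 45.5, 72.0 and 56.8 CPM in DEX+PBS, at 44.5, 42.0, 46.8 and 50.4 CPM in PBS+TNF, and at 60.7, 74.0, 64.4 and 119 CPM in DEX+TNF. Each DEX group lay above its own control group, while DEX+PBS and PBS+TNF overlapped. The mean DEX effect was a log2 fold change of 0.97 (SE 0.18, adjusted p = 0.03838), with 1.14 (adjusted p = 0.4452) without TNF and 0.79 (adjusted p = 0.187) with TNF. The mean effect was 0.85 (adjusted p = 0.08565) without DEX+TNF libraries 3 and 4. It was called in 5 of 16 single omissions (library 2 of PBS+PBS or DEX+PBS, or DEX+TNF library 1, 2 or 3 left out), with adjusted p up to 0.09674 in the others.

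**Figure D2:**
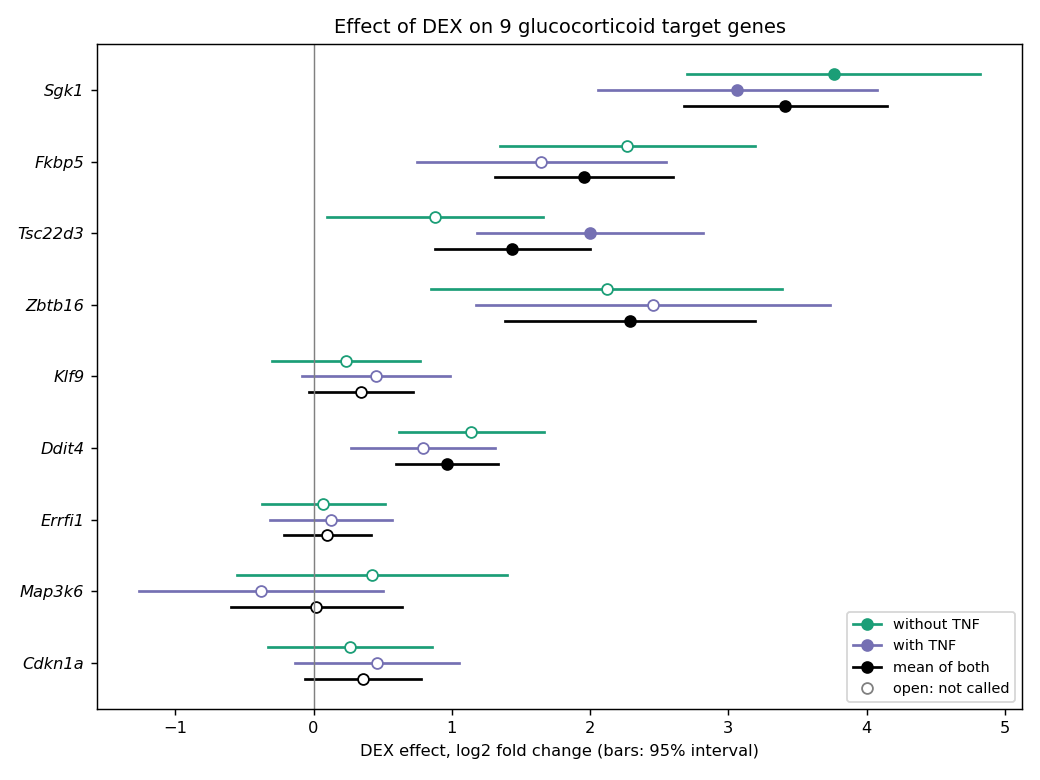
Log2 fold change of DEX over PBS for the 9 genes without TNF (green), with TNF (violet) and as the mean of both (black), with 95% intervals. Filled points are called at an adjusted p under 0.05, which holds for the mean effect of Sgk1, Fkbp5, Tsc22d3, Zbtb16 and Ddit4, and the intervals of Klf9, Errfi1, Map3k6 and Cdkn1a include 0 in every case.

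The other 4 targets did not pass the test for a DEX effect in any of these comparisons. Klf9 (ENSMUSG00000033863, chr19:23118187-23148497), a Krüppel-like transcription factor, was on average at 36.4 ± 7.80 CPM in PBS+PBS, 31.1 ± 9.68 in PBS+TNF, 42.9 ± 8.10 in DEX+PBS and 42.8 ± 8.16 in DEX+TNF (SD, n = 4 each). Its mean DEX effect was a log2 fold change of 0.34, with a 95% interval from -0.03 to 0.72. Cdkn1a (ENSMUSG00000023067, chr17:29309936-29319701), which encodes the cell cycle inhibitor p21, was at 48.4 ± 14.2, 40.9 ± 12.6, 58.1 ± 14.4 and 56.3 ± 13.8 CPM in the same order. Its mean DEX effect was 0.36, with an interval from -0.06 to 0.78. For both genes the groups overlapped in each DEX comparison, and PBS+TNF library 1 had the lowest level of all libraries.

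Errfi1 (ENSMUSG00000028967, chr4:150938376-150955402), which encodes the EGF receptor inhibitor MIG6, was higher in the TNF-labelled libraries, and each DEX group overlapped with its control group. It was at 5.91, 7.09, 8.86 and 6.91 CPM in PBS+PBS and at 5.34, 8.62, 8.02 and 8.21 CPM in DEX+PBS. It was at 10.02, 8.98, 11.8 and 14.3 CPM in PBS+TNF and at 12.5, 11.6, 12.1 and 13.2 CPM in DEX+TNF. All TNF-labelled libraries lay above all others, but by a narrow margin between PBS+TNF library 2 (8.98 CPM) and PBS+PBS library 3 (8.86 CPM). The share of all tested genes with this pattern was not computed. The log2 fold change of 0.65 (SE 0.21, adjusted p = 0.05326) for PBS+TNF over PBS+PBS missed the threshold. For Errfi1, libraries 3 and 4 of DEX+TNF were between the lowest and highest of the other TNF-labelled libraries, unlike for the NF-kB genes. The mean DEX effect was 0.10, with a 95% interval from -0.21 to 0.41.

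Map3k6 (ENSMUSG00000028862, chr4:132968091-132980241), an upstream kinase of the stress-activated MAP kinase cascades, followed TNF. It was at 0.771, 0.830, 1.17 and 1.51 CPM in PBS+PBS, at 0.728, 1.21, 1.60 and 2.04 CPM in DEX+PBS, at 7.13, 3.62, 6.47 and 7.48 CPM in PBS+TNF, and at 5.40, 7.92, 1.53 and 3.99 CPM in DEX+TNF. DEX+TNF library 3 was in the range of DEX+PBS, and the other 3 lay above it. Map3k6 rose in PBS+TNF over PBS+PBS by a log2 fold change of 2.53 (SE 0.46, adjusted p = 0.002464). Its mean DEX effect was 0.02, with a 95% interval from -0.60 to 0.64.

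By second injection, the DEX contrasts called fewer members. In DEX+PBS over PBS+PBS, Sgk1 was called (1 of 9 members), and it was the only gene called among those tested (0.00847%, 1 gene; 224 had an unadjusted p under 0.05). All DEX+PBS libraries lay above all PBS+PBS libraries in 5 of 9 members (Sgk1, Fkbp5, Tsc22d3, Zbtb16 and Ddit4), against 0.999% of tested genes (118 genes). In DEX+TNF over PBS+TNF, Sgk1 and Tsc22d3 were called, 2 of 9 members against 0.339% of tested genes (40 genes). The same 5 members had all DEX+TNF libraries above all PBS+TNF libraries, against 3.47% of tested genes (410 genes). Without DEX+TNF libraries 3 and 4, Sgk1 and Fkbp5 were called without TNF, no gene was called with TNF, and Sgk1 and Fkbp5 were among 5 genes called in the mean effect. The call of Sgk1 without TNF was lost when PBS+PBS library 1, 2 or 3 was left out, with log2 fold changes of 3.50 to 3.97 over all single omissions.

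**Figure D3:**
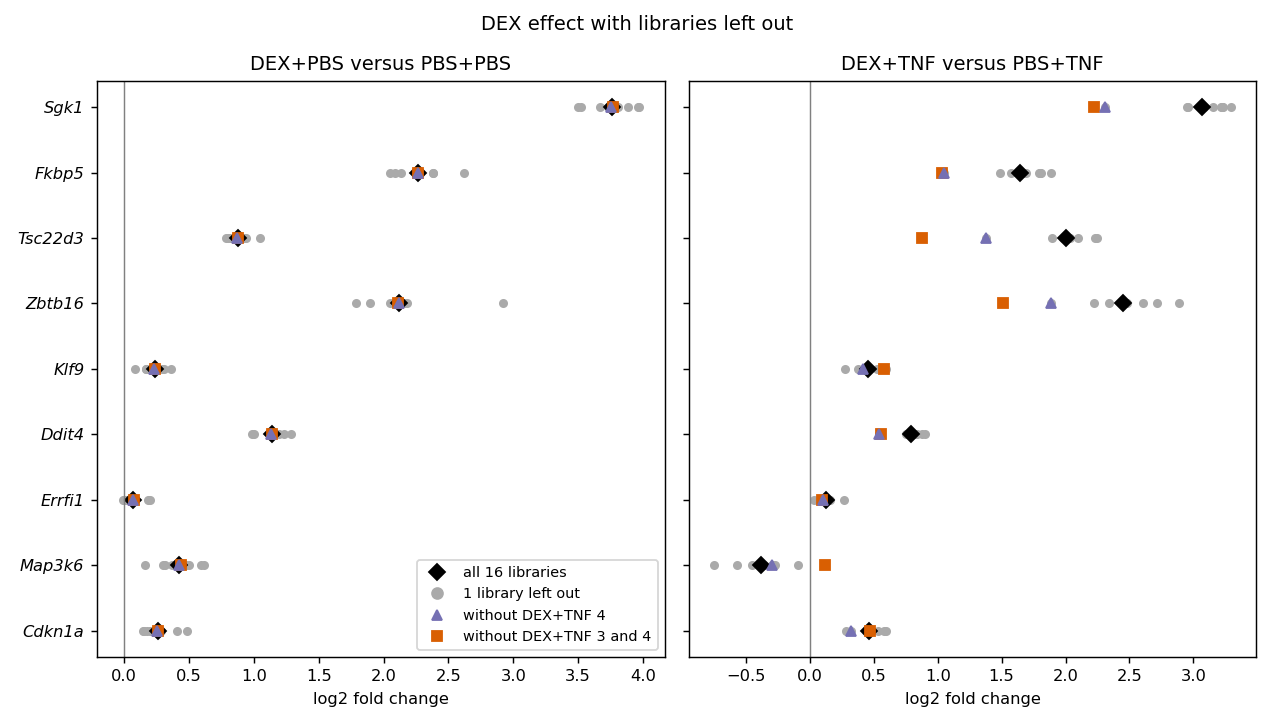
Log2 fold change of DEX over PBS without TNF (left) and with TNF (right) for each gene from all 16 libraries (black diamonds), with 1 library left out (grey points), without DEX+TNF library 4 (violet triangles) and without DEX+TNF libraries 3 and 4 (orange squares). The effects without TNF do not use the DEX+TNF libraries, so that they hardly move without these follows from the design. With TNF, Sgk1 goes from 3.06 to 2.23 and Tsc22d3 from 2.00 to 0.87 without libraries 3 and 4.

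Whether the DEX effect depended on the second injection was tested directly as the difference of the 2 DEX effects. No gene was called (0% of tested genes, edgeR). At p under 0.05 with no adjustment there were 642 genes. By DESeq2 there were 8 called genes, none of them members. Among the 9 genes, Tsc22d3 had the smallest p, with a difference of 1.12 on the log2 scale (SE 0.53, 95% interval 0.01 to 2.23, unadjusted p = 0.04785, adjusted p = 0.9045). This difference was -0.0032 without DEX+TNF libraries 3 and 4. The difference was -0.70 for Sgk1 (95% interval -2.06 to 0.67) and -0.62 for Fkbp5 (-1.87 to 0.63). Omission of the same libraries moved it to -1.54 for Sgk1 (SE 0.53, adjusted p = 0.8053) and to -1.23 for Fkbp5 (SE 0.54, adjusted p = 0.8817). These intervals are wide, so an equal DEX effect in both settings is not shown.

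The same genes were also compared for TNF alone. In PBS+TNF over PBS+PBS, Map3k6 and Ddit4 rose, 2 of 9 members against 12.5% of tested genes (1476 genes), and none fell. A count this small does not set the members apart from the tested genes as a whole. The log2 fold change of Ddit4 was 0.85 (SE 0.25, adjusted p = 0.03275), and its call was lost (adjusted p up to 0.1061) without library 1, 3 or 4 of either group, while that of Map3k6 held in 16 of 16 single omissions. Sgk1 was higher in all 4 PBS+TNF libraries than in any PBS+PBS library, with a log2 fold change of 1.35 (SE 0.49, adjusted p = 0.07918), and Tsc22d3 was lower in all 4, with -1.06 (SE 0.38, adjusted p = 0.07761). Neither passed the threshold, and the share of all tested genes so separated was not computed. The spread in this fit is shared by all 16 libraries, and with DEX+TNF libraries 3 and 4 left out, Sgk1 (adjusted p = 0.0136), Tsc22d3 (adjusted p = 0.001621) and Errfi1 (adjusted p = 0.04977) passed as well. This comparison shares its PBS+TNF libraries with the DEX comparison above.

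In DEX+TNF over DEX+PBS no member was called, against 0.339% of tested genes (40 genes). Map3k6 had a log2 fold change of 1.73 (SE 0.44, adjusted p = 0.1181) and Errfi1 one of 0.71 (SE 0.21, adjusted p = 0.1775). With DEX+TNF libraries 3 and 4 left out, Map3k6 rose by 2.22 (adjusted p = 0.001702) and Tsc22d3 fell by 1.07 (adjusted p = 0.01274) on the log2 scale. Tsc22d3 was thus lower in TNF than in PBS both after PBS and, in DEX+TNF libraries 1 and 2, after DEX.

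Levels can be set side by side between genes only per length of transcript, here CPM per kb of merged exons. In PBS+PBS the order was Ddit4 (9.37), Cdkn1a (8.01), Klf9 (4.43), Tsc22d3 (2.03), Errfi1 (1.22), Fkbp5 (1.17), Sgk1 (0.407), Map3k6 (0.212) and Zbtb16 (0.155). In DEX+PBS, Ddit4 (20.7) and Cdkn1a (9.61) still led, followed by Fkbp5 (5.68), Sgk1 (5.44) and Klf9 (5.22), and then by Tsc22d3 (3.75), Errfi1 (1.28), Zbtb16 (0.710) and Map3k6 (0.276). Fkbp5, Sgk1 and Klf9 were closer to each other there than the spread between replicates of Sgk1, whose coefficient of variation was 39.2%. On this scale Sgk1 and Fkbp5 had thus passed from the lower part of the order to the level of Klf9. Merged exons join all annotated transcripts of a gene, so the order between genes depends on that length.

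The members' patterns over the 16 libraries were compared by Pearson's r of log2 CPM, as a description. The pairs share libraries, scaling and group differences. Sgk1 was most like Mt1 (r = 0.917), Ddit4 (0.912) and Fkbp5 (0.890) over 16 libraries. Among the 3 genes most like Fkbp5 were Bcl2l1 (0.891) and Sgk1 (0.890). Tsc22d3 was most like Prdx6 (0.919), Sesn1 (0.919) and Angptl4 (0.918). Zbtb16 was most like Hif3a (0.903). After removal of group means, Sgk1 and Ddit4 still had r = 0.785, whereas Sgk1 and Zbtb16 went from 0.767 to 0.00955. Errfi1 and Map3k6 had r = 0.808 over all libraries and 0.431 within groups.

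**Figure D4:**
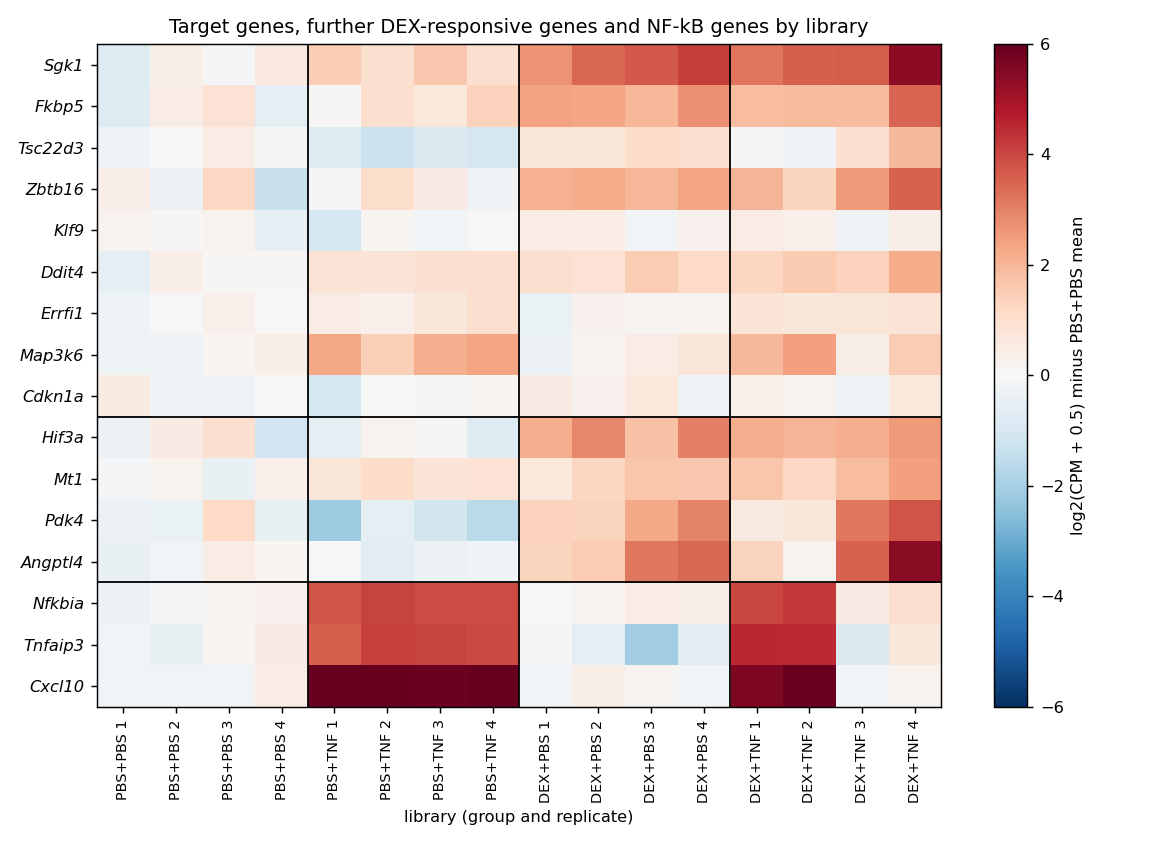
log2(CPM + 0.5) minus the PBS+PBS mean in each library (columns) for the 9 target genes, 4 further genes called for DEX, and 3 NF-kB target genes. Sgk1, Fkbp5 and Zbtb16 are red in all DEX libraries, Tsc22d3 is near the PBS+PBS level in DEX+TNF libraries 1 and 2, the NF-kB genes are red in PBS+TNF and in DEX+TNF libraries 1 and 2 and near the PBS+PBS level in DEX+TNF libraries 3 and 4, and Pdk4 and Angptl4 are darkest in DEX+TNF library 4.

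Beyond the 9 genes, 52 further genes known to be induced by glucocorticoids were listed, also with earlier results known, of which 42 were tested. In the mean DEX effect 4 of them rose (Hif3a, Mt1, Pdk4 and Angptl4) and none fell, against the same 0.186% of all tested genes. Their median log2 fold change was 0.19, and 28 of 42 were positive. Hif3a encodes a hypoxia-inducible factor subunit and held 2.06, 4.15, 6.25 and 1.00 CPM in PBS+PBS, 14.4, 24.1, 10.8 and 26.3 CPM in DEX+PBS, 1.73, 3.38, 3.02 and 1.44 CPM in PBS+TNF, and 14.6, 12.9, 14.5 and 18.9 CPM in DEX+TNF. All its DEX libraries lay above all others, and DEX+TNF library 4 did not stand apart. Its mean effect was 2.55 (SE 0.31, adjusted p = 0.001388), and 2.47 (adjusted p = 0.01078) without DEX+TNF libraries 3 and 4, and it was called in 16 of 16 single omissions.

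Mt1, a metallothionein that binds zinc, had a mean DEX effect of 1.20 (SE 0.20, adjusted p = 0.01575), with 11.5, 14.5, 9.13 and 15.6 CPM in PBS+PBS and 19.5, 30.8, 41.0 and 39.6 CPM in DEX+PBS. It also rose in PBS+TNF, to 21.0, 27.1, 21.6 and 23.4 CPM, a log2 fold change of 0.88 (adjusted p = 0.04559) over PBS+PBS. Pdk4, which restrains glucose oxidation, had a mean effect of 3.26 (SE 0.54, adjusted p = 0.01575). In DEX+TNF it was at 3.95, 4.37, 26.5 and 41.3 CPM, against 0.193, 1.63, 0.914 and 0.495 CPM in PBS+TNF, so that libraries 1 and 2 lay far below libraries 3 and 4. Angptl4, an inhibitor of lipoprotein lipase, showed the same split, with 1.77, 0.566, 10 and 38.1 CPM in DEX+TNF. Its log2 fold change of 4.68 (SE 0.76, adjusted p = 0.01575) rests on 1 to 6 reads per PBS+TNF library. Without DEX+TNF libraries 3 and 4, the mean effect was 0.99 for Mt1, 2.16 for Pdk4 and 2.96 for Angptl4, and none of the 3 passed (adjusted p = 0.07178, 0.09182 and 0.05903). Mt1 and Angptl4 were called in 10 of 16 single omissions each and Pdk4 in 11, and all 3 were lost without PBS+PBS library 1 or PBS+TNF library 1, 3 or 4 (adjusted p up to 0.07157). Further losses came without PBS+PBS library 3 or DEX+PBS library 3 for Mt1, without PBS+PBS library 4 for Pdk4, and without PBS+PBS library 4 or PBS+TNF library 2 for Angptl4.

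The next genes of that list by p did not pass in the mean DEX effect. Acot1, a fatty acyl-CoA thioesterase, had a log2 fold change of 2.42 (adjusted p = 0.17), Lcn2, an iron-chelating antimicrobial protein, 2.61 (adjusted p = 0.1829), Sesn1 1.41 (adjusted p = 0.216), Mt2 1.55 (adjusted p = 0.2222) and Klf15 0.62 (adjusted p = 0.2374). Sesn1, a stress-induced inhibitor of mTORC1, was at 4.03, 2.18, 8.17 and 27.4 CPM in DEX+TNF, again lower in libraries 1 and 2. In DEX+PBS over PBS+PBS no gene of the list was called. In DEX+TNF over PBS+TNF, Pdk4, Angptl4 and Hif3a were called (3 of 42, against 0.339% of tested genes), and with DEX+TNF libraries 3 and 4 left out none was. The log2 fold change then went from 4.43 to 2.23 for Pdk4 and from 5.82 to 2.38 for Angptl4, but only from 2.64 to 2.49 for Hif3a (adjusted p = 0.1736). These 3 calls were also lost without any 1 of the PBS+TNF libraries or without DEX+TNF library 3 or 4 alone, and that of Angptl4 also without PBS+PBS library 2 or DEX+PBS library 3.

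In PBS+TNF over PBS+PBS, 11 of the 42 rose and 3 fell, against 12.5% of all tested genes called in either direction. Tat, a liver tyrosine-degrading enzyme, rose by a log2 fold change of 7.30 (SE 1.05, adjusted p = 0.0008652), from 0.355 to 59.8 CPM on average. The transcription factor gene Cebpd rose by 4.46, Stom by 4.75, Nfkbia by 3.92 and the phosphatase gene Dusp1 by 2.68. The other genes that rose were Tgm2 (2.37), Zfp36 (2.34), Klf6 (1.70), Dusp4 (1.69), Pck1 (1.25) and Mt1 (0.88). Those that fell were Cyp2b10 (-2.77), Il6ra (-2.69) and Cpt1a (-1.46). Of these 14, Dusp4, Pck1, Cyp2b10 and Mt1 lost their call in at least 1 single omission, and Mt1 did so in 11 of 16. In DEX+TNF over DEX+PBS, Cebpd, Tat and Nfkbia rose (3 of 42, against 0.339% of tested genes), by log2 fold changes of 2.55, 6.20 and 3.03. Their calls held in 2 of 16 single omissions, those of DEX+TNF library 3 or 4, and no gene was called in the other 14. With both left out the log2 fold changes were 3.17, 7.10 and 3.90 (adjusted p = 3.527e-06, 3.609e-06 and 2.488e-08).

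Genes that work with the targets were examined by function. Of 20 tested genes for the receptor, its chaperones and hormone metabolism none was called for DEX in any contrast, and Nr3c1 itself had a mean DEX log2 fold change of 0.03. Hsd11b2, which inactivates corticosterone, had 2.08 (SE 0.55, adjusted p = 0.216). Of 14 tested genes for sodium transport and SGK1 substrates none was called for DEX. Of 12 tested genes of the mTOR and stress pathway around REDD1, and of 12 partners of MIG6 and MAP3K6, none was called for DEX either. Among 18 tested p53 targets, the company in which Cdkn1a is best known, Trp53inp1 rose by a mean DEX log2 fold change of 1.04 (SE 0.17, adjusted p = 0.01575) and none fell. This effect was 0.97 (adjusted p = 0.05903) without DEX+TNF libraries 3 and 4, and its call was lost (adjusted p up to 0.06558) without PBS+PBS library 3, PBS+TNF library 1, 2 or 4, or DEX+PBS library 3. Fas in that list had -1.30 (SE 0.40, adjusted p = 0.3456).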

How the data were processed

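The authors aligned the reads with STAR to GRCm39 (mm39) and deposited 1 table of raw counts per gene. The submitters' processing notes give STAR 2.7.10a, FastQC 0.12 and DESeq2, and the study's methods give GENCODE as annotation. The counting tool, its treatment of multi-mapping reads and its use of strand were not given in the sources used here. Total RNA was extracted from the sorted cells and libraries were made with a stranded mRNA kit. The labels call the samples biological replicates, 4 per group, and all 16 entered 1 fit.

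Counts were filtered with filterByExpr, scaled with TMM and tested with edgeR 4.0.16 (quasi-likelihood, robust) in R 4.3.3, over 6 contrasts with Benjamini-Hochberg adjustment over 11809 genes. Log2 CPM for correlations used a prior count of 2. Alternatives were other scaling factors, other filters, DESeq2 1.42.0, a replicate block, the 2 compared groups alone, and omission of libraries. The fitting step was checked on simulated data. Motifs were read from GRCm39. Gene spans were taken from GENCODE M39, which held 54749 of 55414 identifiers. The members and the lists were chosen with earlier results of these data known. Named genes were the 9 members, listed glucocorticoid-induced genes called in any contrast with the next 5 by p, up to 4 genes of each other list by p in the mean DEX effect, the 3 genes most like each of 4 members, and 3 NF-kB genes. From each other list the text names fewer, and some genes that the rule picks are not reported here. Counting error limits low values: 3 reads equal 0.149 to 0.578 CPM.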

Additional observations from a re-analysis of the deposited data

Results flagged for a closer look

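In the DEX+TNF group the highest library of Sgk1 (library 4, 115 CPM) lay far from the nearest other library (33.6 CPM), with a gap of 0.903 of the group's range, above Dixon's 95% critical value for 4 libraries. The highest library of Fkbp5 was the same one, at 135 CPM against 44.6 CPM for the nearest other, with a gap of 0.985 of the range. Over the 36 member and group combinations examined these were the 2 beyond the critical value, and chance alone would flag about 1 in 20. Library 4 is also the one with the highest summed enterocyte, tuft and stem cell markers. Its summed Paneth and goblet markers were the lowest in CPM but not as shares of its counts. Its Nfkbia level of 41 CPM lay far below PBS+TNF (at least 277 CPM) and above all libraries without TNF (at most 27.3 CPM). The part of the other cell types or of the weak NF-kB response in the levels of Sgk1 and Fkbp5 was not tested. Without library 4 the effect of DEX with TNF on the log2 scale was 2.31 for Sgk1 (adjusted p = 0.06566) and 1.05 for Fkbp5 (adjusted p = 0.3462).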

How the results depend on the processing

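Precision was limited by 4 libraries per group, by low counts of Zbtb16, Map3k6 and Angptl4, and by DEX+TNF libraries 3 and 4, whose NF-kB levels go against their label. Over all alternatives, Sgk1 was called in the mean DEX effect under each of 26. Map3k6 was called in PBS+TNF over PBS+PBS under each of the 26 in which it was tested. The filter at a mean of 5 CPM removed it. Of the other called mean effects, Fkbp5 was called under 24 of 26, Ddit4 under 12, and Tsc22d3 and Zbtb16 under 9 each. The direction held in every alternative for the 5 genes called in the mean DEX effect. The causes of changes below were not tested except where libraries were removed or fewer genes tested.

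In DEX+PBS over PBS+PBS, where 1 member was called, no scaling gave 0, DESeq2 3 (of 6 genes in all), and the fit without DEX+TNF libraries 3 and 4 gave 2. Single omissions gave 0 to 2, with 0 without PBS+PBS library 1, 2 or 3 and 2 without DEX+TNF library 4. In DEX+TNF over PBS+TNF, where 2 members were called, the replicate block gave 1, no scaling 0, DESeq2 4 (of 243 genes), the 2 groups alone 0 and the fit without DEX+TNF libraries 3 and 4 gave 0. Single omissions gave 0 to 3, with 0 without any of the PBS+TNF libraries or without DEX+TNF library 3 or 4. In the mean DEX effect, where 5 members were called, the replicate block gave 2 (of 9 genes), no scaling 1, the fit without DEX+TNF libraries 3 and 4 gave 2 (of 5 genes), DESeq2 5 (of 92 genes), and single omissions 1 to 5, with 1 without PBS+TNF library 3. In PBS+TNF over PBS+PBS, where 2 were called, upper-quartile scaling, no low-count filter, a filter at a mean of 5 CPM and no scaling each gave 1, DESeq2 and the 2 groups alone each gave 4, the fit without DEX+TNF libraries 3 and 4 gave 5, and single omissions 1 to 4. In DEX+TNF over DEX+PBS, where none was called, DESeq2 gave 1 and the fit without DEX+TNF libraries 3 and 4 gave 2, with 1286 genes called in all against 40 with them, and single omissions 0 to 1, with no gene called in 14 of 16, under the replicate block, without scaling or with the 2 groups alone.

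Log2 fold changes that turned were small or rested on DEX+TNF libraries 3 and 4, except that Zbtb16 also turned under other single omissions. Without both, they were 0.12 for Map3k6 in DEX+TNF over PBS+TNF, -0.0032 for Tsc22d3 and -0.61 for Zbtb16 in the difference of the DEX effects, and -0.19 for Sgk1, -0.52 for Fkbp5, -1.07 for Tsc22d3, -0.50 for Zbtb16 and 0.12 for Klf9 in DEX+TNF over DEX+PBS. Under single omissions in the last comparison, Sgk1 ran from -0.10 to 0.91, Fkbp5 from -0.50 to 0.25, Tsc22d3 from -0.56 to 0.30, Zbtb16 from -0.11 to 0.71, Klf9 from -0.125 to 0.12 and Cdkn1a from -0.19 to 0.097. Their other single omission ranges were -0.011 to 0.20 for Errfi1 in DEX+PBS over PBS+PBS, -0.16 to 0.17 for Map3k6 in the mean DEX effect, -0.32 to 0.92 for Zbtb16 in PBS+TNF over PBS+PBS, and, in the difference of the DEX effects, -0.46 to 0.77 for Zbtb16, -0.074 to 0.20 for Errfi1 and -0.023 to 0.33 for Cdkn1a. No scaling gave -0.036 for Errfi1 in that difference and 0.082 for Cdkn1a in DEX+TNF over DEX+PBS. Upper-quartile scaling gave -0.016 for Zbtb16 in PBS+TNF over PBS+PBS, and the 2 groups alone gave 0.0098 for Klf9 in DEX+TNF over DEX+PBS.

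The labels give the replicate numbers no meaning, so they were not taken to pair the libraries. Same-number pairs were nevertheless somewhat more alike. Deviations were correlated above 0.1 in 12 of 24 same-number pairs (median 0.115, lowest -0.365). This held for 20 of 72 pairs with different numbers (median -0.0615), and 7 of 16 libraries were closest to their own number. What the numbers stand for was not tested. In the mean DEX effect the replicate block called only Sgk1 and Fkbp5 among the members. With the replicate block, the log2 fold change in DEX+TNF over DEX+PBS was -0.043 for Fkbp5, -0.10 for Tsc22d3 and 0.0012 for Klf9, Sgk1 was called with TNF (16 genes in all) and without TNF, Sgk1, Ddit4 and Map3k6 in PBS+TNF over PBS+PBS, and 0 genes in DEX+TNF over DEX+PBS. No scaling, and the same alternatives for the further glucocorticoid-induced genes, were added after the data had been seen.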
